A study of Saccharomyces cerevisiae with 5 samples.

Results

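The genes described here encode the translation elongation factors of budding yeast and eIF5A. They were chosen by gene name, namely TEF1, TEF2, TEF4, EFB1, CAM1, EFT1, EFT2, YEF3, HEF3 and HYP2. All 10 were found among the 6256 genes of the array, each with 1 probe printed as 7 spots. The paralog of HYP2, ANB1, is given beside them so that every duplicated gene has its partner.

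Transcript levels came from 5 RNA samples of a single group, each hybridized to its own two-colour Agilent array. RNA and genomic DNA were both from the strain labelled Sigma 1287b, L5366, which the methods spell Sigma1278b, and the sources used here do not state its ploidy. Cultures grew at 30 °C in a rich medium with dextrose to mid-log phase, with no treatment, mutation or other condition to compare. Total RNA carried Cy3 and genomic DNA carried Cy5. Per the file headers, arrays 1 to 3 were scanned in one session and arrays 4 and 5 in another, and the second session held 1 slide only. The methods call the study's RNA samples biological replicates, while the labels do not say of these 5 whether each came from its own culture, so the p-values measure the spread between these samples, which may be partly technical.

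Elongation factors carry the ribosome through each cycle of amino acid addition. eEF1A delivers aminoacyl-tRNA as a GTPase, and the eEF1B complex returns it to the GTP form, with eEF1Bα as the exchange subunit and eEF1Bγ as a partner subunit. eEF2 moves tRNA and mRNA by one codon, eEF3 is an ATPase of fungi that the yeast ribosome also needs for elongation, and eIF5A relieves ribosomes that stall at difficult sequences. Many of these factors have duplicated genes, in part from the whole-genome duplication in the ancestry of this yeast.

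A level is the log2 ratio of Cy3 over Cy5 after subtraction of the local background and quantile normalization, relative to the median gene, so that 0 marks the median gene. Division by genomic DNA serves to put different probes on one scale, and it rests on each probe meeting the same number of gene copies. Arrays correlated at R between 0.992 and 0.998 over all genes (10 pairs, before normalization, across genes that are not independent replicates). Median background-subtracted intensities ranged from 1425 to 2038 in Cy3 and from 11396 to 13043 in Cy5. No gene spot was saturated. Among 4 genes known to rise in stationary phase that were on the array, all 4 were below the median gene (2 of them, HSP12 and HSP26, were not well above background in both channels on every array), with CTT1 at -1.20 ± 0.07 and SSA3 at -1.58 ± 0.08 (SD, n = 5). Of all genes, 47.6% were called below it by limma at an adjusted p of 0.05, so this count says little about growth state.

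All 10 elongation factor genes were well above background in both channels in every spot of every array. Of their 350 spots, 5 carried an outlier flag and were left out. The genes fell into 3 classes of level. The 8 genes TEF1, TEF2, TEF4, EFB1, EFT1, EFT2, YEF3 and HYP2 ranked above the 90th percentile of all genes, CAM1 stood at percentile 87.8, and HEF3 stood at percentile 23.0. With limma over all genes, 9 of the 10 were above the median gene and 1 was below it at an adjusted p of 0.05. This count carries little information on its own, since 47.7% of all genes were called above and 47.6% below. The sign depended on the scaling for several genes. Loess set the ratio of Cy3 over Cy5 to 0 on average among spots of like brightness within each array. A level under loess thus no longer compares genes of unlike brightness directly. Under loess TEF1, TEF2, CAM1, EFT1, EFT2 and HYP2 fell below the median gene, and with Agilent's processed signals TEF1, TEF2, EFT1, EFT2 and HYP2 did, while ANB1 rose above it under both. The median level of the 10 genes was 4.73, against -0.0023 for all genes. Together the 10 genes held 1.53% ± 0.05 (SD, n = 5) of the summed linear levels of the 6213 genes with measured genomic DNA, of which they are 0.161% by number.

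**Figure D1:**
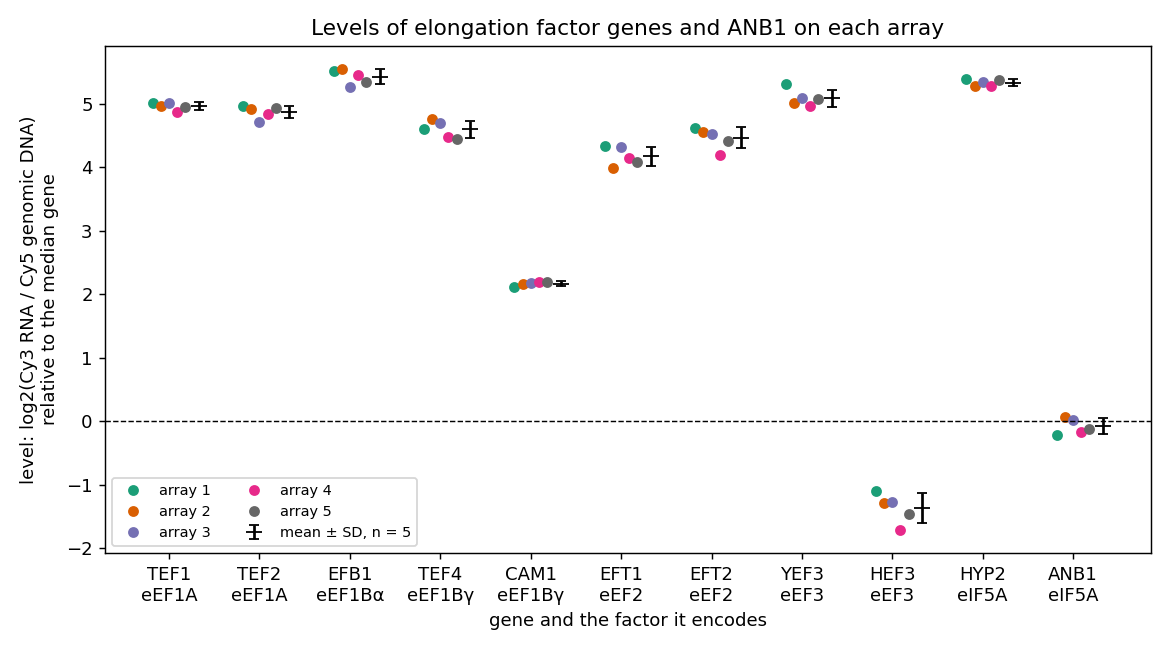
Level of each elongation factor gene and of ANB1 on arrays 1 to 5 (points, log2 ratio of Cy3 over Cy5 relative to the median gene), with the mean and SD of 5 arrays beside them and the encoded factor under each name. TEF1, TEF2, EFB1, TEF4, EFT1, EFT2, YEF3 and HYP2 lie at 3.99 or higher on every array, CAM1 lies between 2.11 and 2.19, ANB1 lies around the median gene, and HEF3 lies below it on all 5 arrays.

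eEF1A is encoded by TEF1 (YPR080W) and TEF2 (YBR118W), whose protein products are identical. The level of TEF1 was 5.01, 4.97, 5.01, 4.87 and 4.95 on arrays 1 to 5, a mean of 4.96 ± 0.06 (SD, n = 5) or 31.1 times the median gene. The level of TEF2 was 4.96, 4.91, 4.71, 4.84 and 4.93, a mean of 4.87 ± 0.10. The ranges of both genes overlapped, and TEF2 was lowest on array 3.

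Within arrays TEF1 exceeded TEF2 by 0.09 ± 0.11 log2 (SD, n = 5). The difference was 0.06, 0.06, 0.29, 0.03 and 0.02 on arrays 1 to 5. It was positive on 5 of 5 arrays, with p = 0.062 in the exact two-sided sign-flip permutation test, the smallest value that 5 arrays allow. The mean difference was smaller than its SD, and without array 3 it was 0.04. TEF2 thereby held 48.4% ± 1.95 of the summed level of the pair.

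The 2 eEF1A probes also gave the same genomic DNA signal. Mean background-subtracted Cy5 intensity was 75809 ± 7805 for TEF1 and 75821 ± 6365 for TEF2 (SD, n = 5), a difference of -0.0024 ± 0.08 log2. Mean Cy3 intensity was 335146 ± 26232 and 319366 ± 41508. TEF1 and TEF2 are nearly identical in their coding sequence, and the probe sequences were not analysed here. Whether each probe reads 1 gene or both was not tested, so the values of TEF1 and TEF2 are uncertain as values of single genes.

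eEF2 is encoded by EFT1 (YOR133W) and EFT2 (YDR385W), again with identical protein products. EFT1 stood at 4.33, 3.99, 4.31, 4.14 and 4.08 on arrays 1 to 5, a mean of 4.17 ± 0.15 (SD, n = 5). EFT2 stood at 4.62, 4.55, 4.51, 4.20 and 4.41, a mean of 4.46 ± 0.17. The ranges overlapped, while within each array EFT2 was the higher gene.

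The difference of EFT1 minus EFT2 was -0.29 ± 0.19 log2 (SD, n = 5) and ranged from -0.56 on array 2 to -0.05 on array 4. It was negative on 5 of 5 arrays (exact sign-flip permutation p = 0.062). It was smaller in the RNA signal alone, at -0.10 ± 0.17 (exact sign-flip permutation p = 0.3125), and the EFT1 probe had the brighter genomic DNA signal, 54337 ± 7685 against 47514 ± 4640. With Agilent's processed signals the difference was -0.0009. As for eEF1A, near-identical coding sequence leaves the split of RNA between EFT1 and EFT2 uncertain.

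The eEF1B complex was uneven between its genes. EFB1 (YAL003W), which encodes the exchange subunit eEF1Bα and has no duplicate, had the highest mean ratio to genomic DNA of the 10 genes, ahead of HYP2 on 3 of 5 arrays. In the RNA signal alone it stood at 6.43 log2 over the median gene, below TEF1 (7.69), TEF2 (7.59), HYP2 (7.28) and EFT2 (6.52). The level of EFB1 was 5.51, 5.54, 5.26, 5.45 and 5.34 on arrays 1 to 5, a mean of 5.42 ± 0.12 (SD, n = 5) or 42.8 times the median gene, which placed it at rank 28 of 6256. The genes nearest to EFB1 in level over the 5 arrays were RPL28, RPS20 and RPS25A, which encode ribosomal proteins, with root-mean-square differences of 0.11, 0.13 and 0.14 log2.

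The eEF1Bγ genes TEF4 (YKL081W) and CAM1 (YPL048W) encode related but distinct proteins. TEF4 stood at 4.60, 4.76, 4.69, 4.47 and 4.45 on arrays 1 to 5, with a mean of 4.59 ± 0.14 (SD, n = 5). CAM1 stood at 2.11, 2.16, 2.18, 2.19 and 2.18, the smallest spread of the 10 genes at 2.17 ± 0.03. The groups of 5 values were far apart, with the lowest TEF4 value at 4.45 and the highest CAM1 value at 2.19.

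TEF4 exceeded CAM1 by 2.43 ± 0.15 log2 (SD, n = 5), or 5.39-fold, on 5 of 5 arrays (exact sign-flip permutation p = 0.062). The size depended on the processing, since loess gave 0.54 ± 0.09 and Agilent's processed signals gave 0.17 ± 0.11 (exact sign-flip permutation p = 0.125 for the latter). CAM1 held 15.7% ± 1.38 of their summed level. Mean genomic DNA intensity was 22987 ± 3586 for TEF4 and 18058 ± 1285 for CAM1, a 1.26-fold difference. In Cy3, TEF4 gave 79087 ± 8215 and CAM1 gave 11554 ± 1270.

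The eEF3 genes had the widest difference in level of the 5 pairs. YEF3 (YLR249W), the essential eEF3 gene, stood at 5.31, 5.01, 5.09, 4.96 and 5.07 on arrays 1 to 5, a mean of 5.08 ± 0.14 (SD, n = 5). HEF3 (YNL014W), its paralog, stood at -1.11, -1.29, -1.28, -1.72 and -1.46, a mean of -1.37 ± 0.23. HEF3 was the only one of the 10 genes below the median gene, and it was so on 5 of 5 arrays (limma adjusted p = 2.94e-07).

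YEF3 exceeded HEF3 by 6.46 ± 0.15 log2 (SD, n = 5), which is 87.8-fold with a range over arrays from 78.8-fold to 102.1-fold. The sign was the same on 5 of 5 arrays (exact sign-flip permutation p = 0.062). Under loess the difference was 0.63 ± 0.13 log2, smaller in size than that of HYP2 and ANB1, and with Agilent's processed signals it was 0.96 ± 0.18. In RNA alone YEF3 minus HEF3 was 7.65 ± 0.24 and HYP2 minus ANB1 was 7.54 ± 0.17, so there the pairs did not differ beyond their spread. The YEF3 probe gave 2.27 times the genomic DNA signal of the HEF3 probe. HEF3 held 1.13% ± 0.11 of the summed level of the pair. Its Cy3 intensity was 1076, 644, 639, 536 and 692 on arrays 1 to 5, in every spot well above background. The YEF3 probe gave between 105832 and 183037, so the Cy3 values of the pair did not overlap. The HEF3 probe thus gave a signal on every array, and whether part of it came from RNA of YEF3 was not tested. In RNA of a whole culture, less RNA in every cell and RNA in fewer cells cannot be told apart.

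Among genes measured in both channels, those nearest to HEF3 in level were MAL31, a maltose permease gene, with a root-mean-square difference of 0.04 log2, and YBR266C and YOR019W, at 0.11 and 0.12. Likeness here covers 5 arrays of 1 condition and describes level only.

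eIF5A, the factor that carries the modified amino acid hypusine, is encoded by HYP2 (YEL034W) and ANB1 (YJR047C). HYP2 is known as the form used in the presence of oxygen and ANB1 as the form used in its absence. HYP2 stood at 5.39, 5.27, 5.34, 5.27 and 5.38 on arrays 1 to 5, a mean of 5.33 ± 0.06 (SD, n = 5) and rank 34 of 6256. ANB1 stood at -0.21, 0.07, 0.02, -0.17 and -0.12, a mean of -0.08 ± 0.12, on either side of the median gene (limma adjusted p = 0.130). Without array 2 its mean was -0.11, at an adjusted p of 0.0466 in limma, so the call depended on array 2. It depended on the processing as well, in both directions. In limma on all 5 arrays, ANB1 was -0.26 in RNA alone (adjusted p = 0.00406) and 0.10 with normexp (0.0471). It was 0.25 under loess (adjusted p = 0.000175) and 0.24 with processed signals (5.33e-05). The other alternatives on all 5 arrays did not pass.

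HYP2 exceeded ANB1 by 5.41 ± 0.16 log2 (SD, n = 5), or 42.5-fold, on 5 of 5 arrays (exact sign-flip permutation p = 0.062). ANB1 held 2.31% ± 0.25 of their summed level. Mean Cy3 intensity was 257637 ± 35434 for HYP2 and 1375 ± 139 for ANB1, and mean Cy5 intensity was 44680 ± 4699 and 10278 ± 766. The HYP2 probe was thus also 4.34 times brighter in genomic DNA, and in RNA alone the difference was 7.54 ± 0.17. Loess and Agilent's processed signals turned this difference to -0.75 and -0.48.

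**Figure D2:**
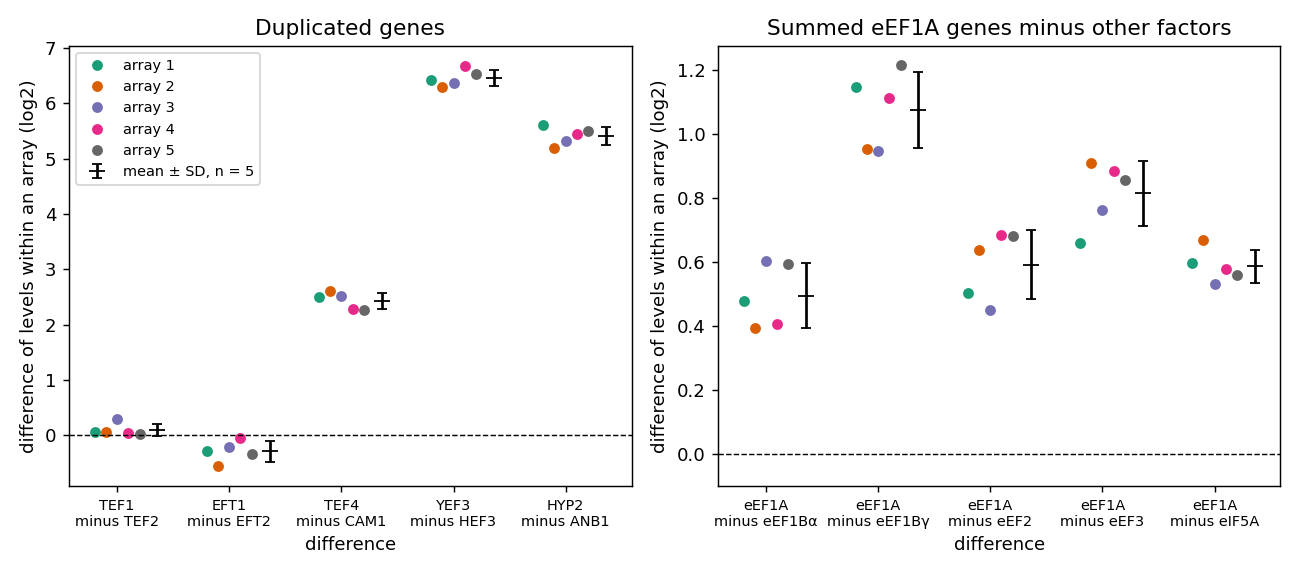
Difference of levels within each array (points, log2) with the mean and SD of 5 arrays, for 5 duplicated gene pairs at left and for the summed eEF1A genes minus each other factor at right. The widest difference in a pair with identical proteins is -0.56, TEF4 minus CAM1 lies between 2.26 and 2.60, HYP2 minus ANB1 between 5.20 and 5.60, and YEF3 minus HEF3 between 6.30 and 6.67.

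The order of single genes by mean level was EFB1, HYP2, YEF3, TEF1, TEF2, TEF4, EFT2, EFT1, CAM1, ANB1 and HEF3. Neighbours in this order were compared within arrays as a description, with no test. EFB1 and HYP2 differed by 0.09 ± 0.15 log2 (SD, n = 5), with EFB1 higher on 3 of 5 arrays, so this pair did not differ beyond its spread. TEF1 over TEF2 was the other neighbouring pair whose mean difference was smaller than its SD. TEF4 over EFT2 was 0.14 ± 0.12 and held on 4 of 5 arrays. The steps from EFT1 to CAM1, with a mean difference of 2.005 ± 0.17, and from CAM1 to ANB1, with 2.25 ± 0.12, were the widest.

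The linear levels of the genes of each factor were then summed within arrays to compare factors. eEF1A, the sum of TEF1 and TEF2, was highest at 5.92 ± 0.05 log2 (SD, n = 5), or 60.4 times the median gene. It was followed by eEF1Bα (5.42 ± 0.12), eIF5A from HYP2 alone (5.33 ± 0.06), eEF2 (5.32 ± 0.13), eEF3 (5.10 ± 0.14) and eEF1Bγ (4.84 ± 0.11). The first place of eEF1A rests on the sum, since singly TEF1 (4.96) and TEF2 (4.87) stood below EFB1, HYP2 and YEF3 (5.08). Whether the probes of eEF1A and of eEF2 each read 1 gene or both was not tested, so these sums are uncertain too. Neighbouring factors in the middle did not differ beyond their spread. eEF1Bα over eIF5A was 0.09 ± 0.15 and held on 3 of 5 arrays, and eIF5A over eEF2 was 0.0044 ± 0.10 and held on 2 of 5 arrays.

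eEF1A exceeded eEF1Bα by 0.50 ± 0.10 log2, eIF5A by 0.59 ± 0.05, eEF2 by 0.59 ± 0.11, eEF3 by 0.81 ± 0.10 and eEF1Bγ by 1.07 ± 0.12 (SD, n = 5). Each difference was positive on 5 of 5 arrays, with exact sign-flip permutation p = 0.062. Adjusted over all 10 differences tested, p was 0.062 for each. The sizes depended on the denominator, and in the RNA signal alone the differences were 2.21, 1.36, 1.17, 2.20 and 2.86 in the same order. Loess turned 4 of them negative and Agilent's processed signals all 5, and normexp background correction turned that against eEF1Bα to -0.15. Where each eEF1A or eEF2 probe reads both genes of its pair, a sum in RNA alone counts the same RNA in both probes. Whether this was so was not tested, so the differences in RNA alone are uncertain in size.

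The genomic DNA signal itself differed among the elongation factor probes. Mean Cy5 intensity was 12077 for the median gene, with the 5th and 95th percentiles of all genes at 6806 and 23357. The TEF1 and TEF2 probes stood 6.28 times above the median gene in Cy5, EFT1 4.50 times, EFT2 3.93 times, HYP2 3.70 times, YEF3 2.41 times, EFB1 1.95 times, TEF4 1.90 times and CAM1 1.50 times. HEF3 and ANB1, the genes with the lowest RNA signal, stood at 1.06 and 0.85 times. The ranks of the genes changed accordingly between channels and ratio. TEF1 stood at percentile 99.98 in Cy3 and 98.7 in level, EFT1 at 99.3 and 96.8, and EFB1 at 99.4 and 99.6.

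Over the whole array, the 63 genes in the top 1% by Cy3, which include 7 of the 10 elongation factor genes, had a median Cy5 of 31367, against 12006 for the other genes. Across 6256 genes the log2 intensities of the channels correlated at r between 0.29 and 0.38 on the 5 arrays, as a description over probes that share labelling and sequence composition. The brightest of 10 E1A control probes gave 90024 ± 7743 in Cy3 and 79.0 ± 23.8 in Cy5, or 0.0877% of its Cy3. Of the 10 control probes, 8 had a mean Cy5 under 100. The brightest control was dimmer in Cy3 than TEF1 (335146), TEF2 (319366) and HYP2 (257637), so it does not cover their intensities. The number of gene copies and the sequences each probe matches were not tested.

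**Figure D3:**
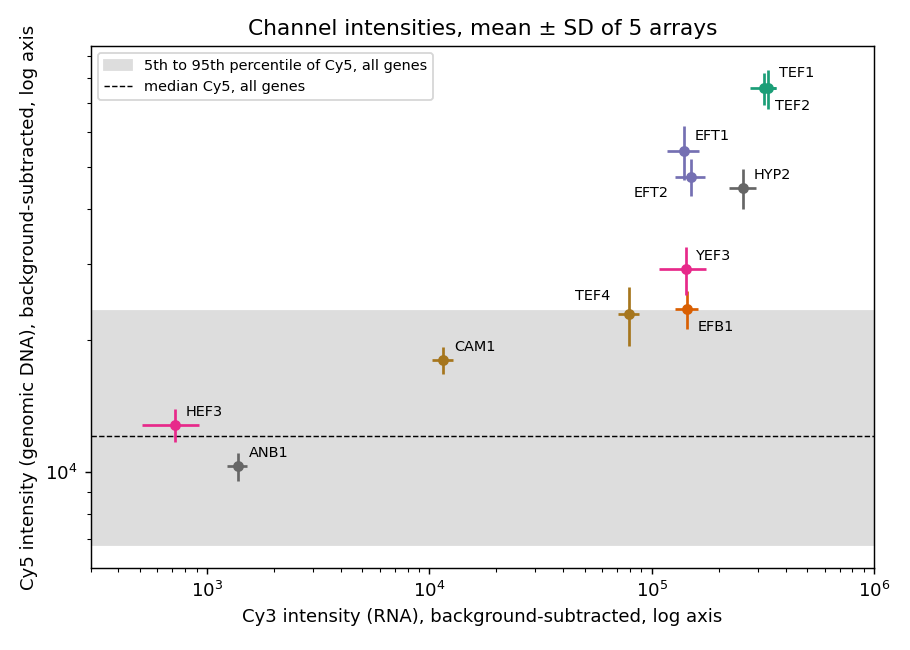
Mean Cy3 (RNA) against mean Cy5 (genomic DNA) intensity of each elongation factor gene and ANB1, on log axes, with SD bars over 5 arrays. The grey band spans the 5th to 95th percentile of Cy5 over all genes and the dashed line is the median, and TEF1, TEF2, EFT1, EFT2, HYP2, YEF3 and, by a narrow margin, EFB1 lie above the band while HEF3 and ANB1 lie near the median at low Cy3.

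The enzymes and relatives of the elongation factors were described from lists of symbols, with limma calls at an adjusted p of 0.05 read against the 47.7% of all genes called above the median gene. Both genes of hypusine synthesis on eIF5A were above it, DYS1, the deoxyhypusine synthase, at 2.77 ± 0.06 and LIA1, the hydroxylase, at 2.10 ± 0.09 (SD, n = 5). Of the 7 genes for diphthamide, the modified histidine of eEF2, 4 were above, 0 below and 3 passed in neither direction. Their levels ranged from DPH6 at -0.08 ± 0.12 to KTI11 at 1.60 ± 0.02. The median of this list was 0.97.

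Of 8 genes for methylation and folding of eEF1A and eEF2, 5 were above and 3 below. The highest was EFM5, a lysine methyltransferase for eEF1A, at 2.49 ± 0.12, and the lowest was EFM3, a methyltransferase known to act on eEF2, at -1.31 ± 0.13. All 3 ATPases related to eEF3 were above, from GCN20, an activator of the Gcn2 kinase, at 2.05 ± 0.11 to ARB1, a ribosome biogenesis factor, at 3.27 ± 0.06. Each of the 3 thus lay between YEF3 and HEF3.

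All 3 GTPases related to eEF1A were also above, from HBS1, which acts with Dom34 on stalled ribosomes, at 0.20 ± 0.14 to SUP35, the release factor eRF3, at 3.29 ± 0.04. The mitochondrial elongation factors were lower than the main cytoplasmic genes. TUF1, the mitochondrial counterpart of eEF1A, stood at 1.89 ± 0.07 and MEF2, a mitochondrial relative of eEF2, at -0.71 ± 0.06, with 2 genes above and 1 below.

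Among the related lists, cytoplasmic ribosomal protein genes had a median level of 4.93 (138 genes taken by a pattern of symbols, 135 of them above the 90th percentile). The pattern also took in RPP1 (YHR062C, 0.14 ± 0.07), which encodes a subunit of RNase P and not a ribosomal protein. Initiation and termination factors had a median of 2.86 (29 genes, 20 of them above the 90th percentile). The elongation factor genes had a median of 4.73, with 8 of 10 above the 90th percentile. These medians are given side by side, with no test, since the genes were chosen with earlier results known.

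**Figure D4:**
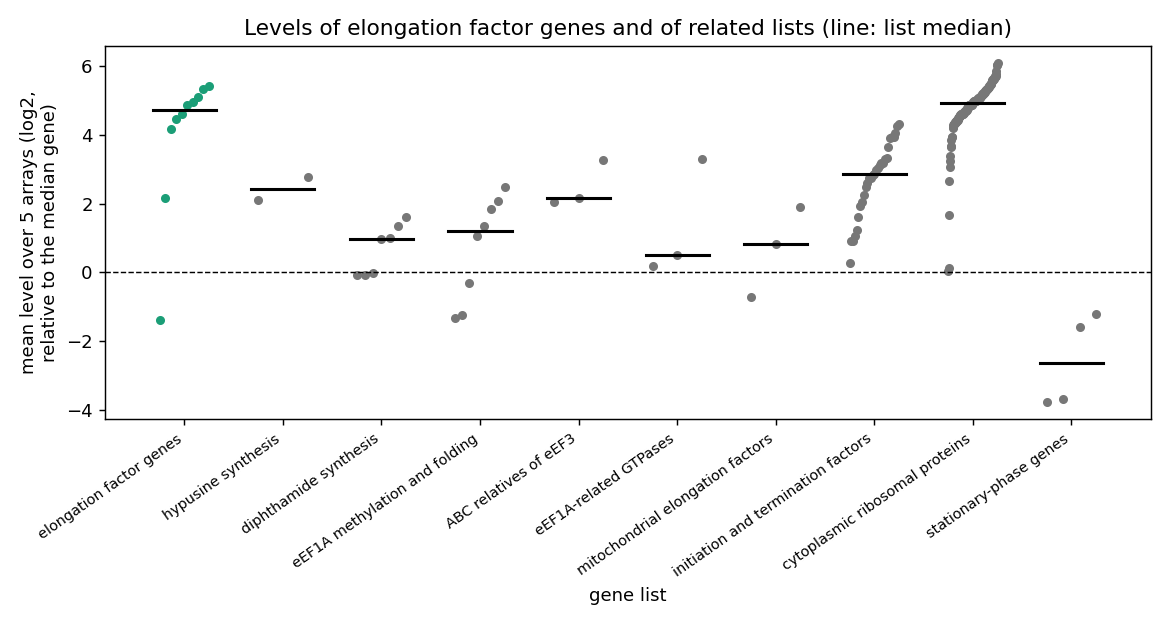
Mean level of each gene over 5 arrays (points, log2 relative to the median gene) for the elongation factor genes and for 9 other lists, with a line at each list's median. The elongation factor genes have a median of 4.73 with CAM1 and HEF3 as the lowest. The ribosomal protein list, which also holds RPP1 of RNase P, has one of 4.93, and initiation and termination factors one of 2.86.

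Scan session and slide were the only splits of the arrays found. With limma, 0 of the 10 elongation factor genes differed between sessions at an adjusted p of 0.05, while 2.64% of all genes did. At an unadjusted p under 0.05 there were 3 of the 10, TEF4, EFT2 and HEF3, while 20.2% of all genes reached it. The widest session difference was that of HEF3, which read -0.36 ± 0.09 log2 (SE) in the second session relative to the first (limma adjusted p = 0.0903). On array 4 HEF3 was at -1.72, below all other arrays, and without array 4 the difference was -0.24. It was -0.11 with Agilent's processed signals and 0.057 under loess. With slide as a random block, TEF4, EFT2 and HEF3 passed (limma adjusted p = 0.00339, 0.00515 and 0.00423), where 35.8% of all genes did. Each slide lay within 1 session and the second session held 1 slide only, so this fit cannot tell slide from session. With only spots well above background, EFT2 and HEF3 passed, HEF3 at a difference of -0.70, where 38.4% of the genes tested did. This filter took no spot of EFT2 or HEF3, so the change came with the removal of spots of other genes. Of all gene spots, 97.7% to 98.8% were well above background in Cy3 on arrays 1 to 3. On arrays 4 and 5 the share was 91.7% and 90.9%.

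Every difference between duplicated genes had the same sign in both sessions. In the first and second session the means were 2.53 and 2.27 for TEF4 minus CAM1, 6.36 and 6.60 for YEF3 minus HEF3, and 5.37 and 5.47 for HYP2 minus ANB1. TEF1 minus TEF2 averaged 0.14 and 0.03, and EFT1 minus EFT2 averaged -0.35 and -0.20. For the 3 uneven pairs the difference between paralogs was larger than that between sessions.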

How the data were processed

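The authors deposited scanner files that give intensity and other values (flags of 0 or 1) for each spot. Their headers name Agilent Feature Extraction 10.1.1.1, and the methods name another release. The authors' table of log2 ratios (Cy3 over Cy5, not centred) was an alternative. It matched unsubtracted medians over spots in 89.4% to 99.6% of genes per array, at a tolerance of 0.001 log2, although the methods describe background subtraction. Here each spot's median signal was reduced by the median of its local background, and log2 of Cy3 over Cy5 was averaged over the spots of a probe without outlier flags in either channel. Quantile normalization used limma 3.58.1 (R 4.3.3), and levels were then set to the median gene. Dyes were not swapped, so a dye effect would remain in every ratio. The number of arrays limits the precision. A gene counted as measured where at least 50% of its spots were well above background, with at least 3 usable.

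Levels and scan sessions were fitted over all genes with limma and Benjamini-Hochberg adjustment. The 10 differences were tested by an exact two-sided sign-flip permutation over 32 sign patterns, which cannot go below p = 0.062. The scripts were tested on simulated data. The genes named are the 10 members, ANB1, the highest and lowest measured gene of each list and the 3 genes nearest in level to the highest and the lowest member. HSP12, HSP26 and RPP1 were named in addition, after their values were seen. Members and lists were chosen with earlier results of these data known. Newer symbols come from the RefSeq table for R64, which held 5756 of the 6256 systematic names, and SPG4 was not found on the array by name.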

Additional observations from a re-analysis of the deposited data

Results flagged for a closer look

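Each of 25 sets of 5 values was searched for an array far from the rest, and 1 set had one, where chance gives about 1 in 20. It was the difference TEF1 minus TEF2, at 0.29 log2 on array 3 against 0.02 to 0.06 on the other arrays.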

How the results depend on the processing

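No paired analysis was possible because all 5 arrays form 1 group, so no samples of different groups could be matched (differences between genes were taken within arrays). The means of TEF1 minus TEF2, EFT1 minus EFT2, TEF4 minus CAM1 and YEF3 minus HEF3 had the same sign in all 18 alternatives, but not the same size. Those that left out 1 array are among the 18. For TEF1 and TEF2 and for EFT1 and EFT2 the mean could lie well within its SD. TEF1 minus TEF2 was 0.04 ± 0.11 under loess (exact sign-flip permutation p = 0.5625). EFT1 minus EFT2 was -0.0009 ± 0.06 with processed signals. TEF4 minus CAM1 ranged from 0.17 with processed signals to 2.75 in RNA alone, and YEF3 minus HEF3 from 0.63 under loess to 7.65 in RNA alone. Under loess HYP2 minus ANB1 was -0.75, and eEF1A minus eEF1Bα, eEF1Bγ, eEF2 and eEF3 were -1.06, -1.50, -0.35 and -1.29. With Agilent's processed signals HYP2 minus ANB1 was -0.48, and eEF1A minus eEF1Bα, eEF1Bγ, eEF2, eEF3 and eIF5A were -1.19, -1.85, -0.32, -1.06 and -0.071. With normexp eEF1A minus eEF1Bα was -0.15. Levels under loess were -1.47 for TEF1, -1.51 for TEF2, -0.28 for CAM1, -1.31 for EFT1, -0.98 for EFT2, -0.49 for HYP2, 0.25 for ANB1 and 0.078 for YEF3. With processed signals they were -1.27 for TEF1, -1.36 for TEF2, -0.9956 for EFT1, -0.9947 for EFT2, -0.24 for HYP2 and 0.24 for ANB1, and normexp gave 0.10 for ANB1. The cause was not tested for any of these.

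Calls against the median gene (5963 genes) stayed within 1.5 times. The number called between sessions (165) was 1 with normexp, 10 with negative controls subtracted, 8 with loess, 2270 with only spots well above background, 41 with outlier spots kept, 99 with the median over spots, 327 with median centring and 2242 with slide as a random block. It was 0 in limma with RNA alone, and from 5 to 174 with single arrays left out (5 without array 4, 18 without array 2, 54 without array 5 and 60 without array 3). The session difference of HEF3 was 0.057 under loess.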
